A study of Schmidtea mediterranea with 8 samples.

Results

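In planarians, the only dividing somatic cells are the neoblasts, the stem cells from which post-mitotic cells of epidermis, gut, muscle and nervous system arise. Neoblast progeny stop dividing and then pass through further states, so transcripts found in post-mitotic cells and not in dividing ones are used as markers of differentiation. Described here are 227 such transcripts of low to moderate level, of 17882 in the table. They were selected on the measured values themselves: each had at least 2 RPKM (reads scaled for transcript length and library size) in all 4 libraries of Xins cells, under 0.1 RPKM in all 4 libraries of X1 cells, and a mean over the Xins libraries under 100 RPKM. How far the fractions lie apart in these transcripts is therefore a description of the selection and not a finding, and where calls of members are counted they stand only beside the share of all transcripts called.

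The cells came from adult Schmidtea mediterranea, a freshwater flatworm, and were sorted by flow cytometry after staining with Hoechst, a dye that binds DNA. Xins is the irradiation-insensitive fraction, which holds a mixture of mostly post-mitotic cell types, and X1 is the irradiation-sensitive fraction of dividing neoblasts. The labels give 4 replicates of each fraction, 8 libraries of polyadenylated RNA in all, with no treatment or genotype beyond the sort. Nothing in the labels says that replicates came from separate animals or sorts, so calls measure the spread between these libraries, which may be technical.

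Markers of neoblasts and of late epidermal progeny lay in opposite fractions. The 8 neoblast markers, which are the Piwi-like gene of planarian stem cells, PCNA and the 6 subunits of the MCM replicative helicase, summed to 102 ± 38.2 RPKM in Xins and 3731 ± 167 RPKM in X1 (mean ± SD, n = 4 each). The late epidermal progeny marker AGAT-1, a glycine amidinotransferase, averaged 791 ± 27.0 RPKM in Xins and 4.04 ± 2.00 RPKM in X1. The gut transcription factor nkx-2.2, in contrast, was not higher in Xins, with 4.93 ± 2.85 RPKM in Xins and 9.41 ± 2.35 RPKM in X1, an X1 level of 191% of the Xins level in pooled reads. Depth recovered from the steps between the deposited values was 14323705 to 15523242 reads per library. In these bulk samples, fewer cells of a type and less RNA per cell cannot be told apart.

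Of the 227 members, 1 has a gene name in the study's tables, zpuf-2, and 3 have an in situ result there. The gene-specific bases of the primers with which stretches of these 3 were cloned are given in capitals, 5′ to 3′, because they are the only sequence known here that identifies a member of this group. The 13 bases that every primer of the study shared for cloning were left off.
zpuf-2 left primer: ATCTGTTGGAAAGAGCTGGACC
zpuf-2 right primer: TGCTGGTTTCTTTGTTGTTTGTG
SMED30001471 left primer: AACTTACCGATTGTCAGAGG
SMED30001471 right primer: ATCACTGGGAGAAGTGATTG
SMED30029717 left primer: GCTCAGATTAAGCATGTATGTCG
SMED30029717 right primer: GAACTGGGTTAATGAAAGGCTG

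Most members were low even in Xins. The mean Xins level ran from 2.40 to 50.7 RPKM, with a median of 4.98 RPKM and quartiles at 3.60 and 9.20 RPKM. Of the 227 members, 115 (50.7%) were under 5 RPKM, against 17.8% of the 10541 other transcripts with at least 2 RPKM in each Xins library and a mean under 100 RPKM, here called the other transcripts of the same Xins range. The X1 limit is fixed in RPKM, so it asks a larger ratio between fractions of a more abundant transcript. How much of the low level of the members follows from that was not tested. At the upper end, 50 members reached 10 RPKM, 20 reached 20 RPKM and 11 reached 30 RPKM. Only 3 further transcripts (SMED30030588, SMED30016731 and SMED30003541) met the limits on single libraries with a mean of 100 RPKM or more, at 106.6, 119.1 and 163.8 RPKM, so the upper limit fell in a gap between 50.7 and 106.6 RPKM. With the fractions exchanged, that is with at least 2 RPKM in every X1 library, a mean X1 level under 100 RPKM and under 0.1 RPKM in every Xins library, 5 transcripts were found. Neoblast markers still summed to 102 RPKM in Xins, against 3731 RPKM in X1. How far this limits the exchanged count was not tested.

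**Figure D1:**
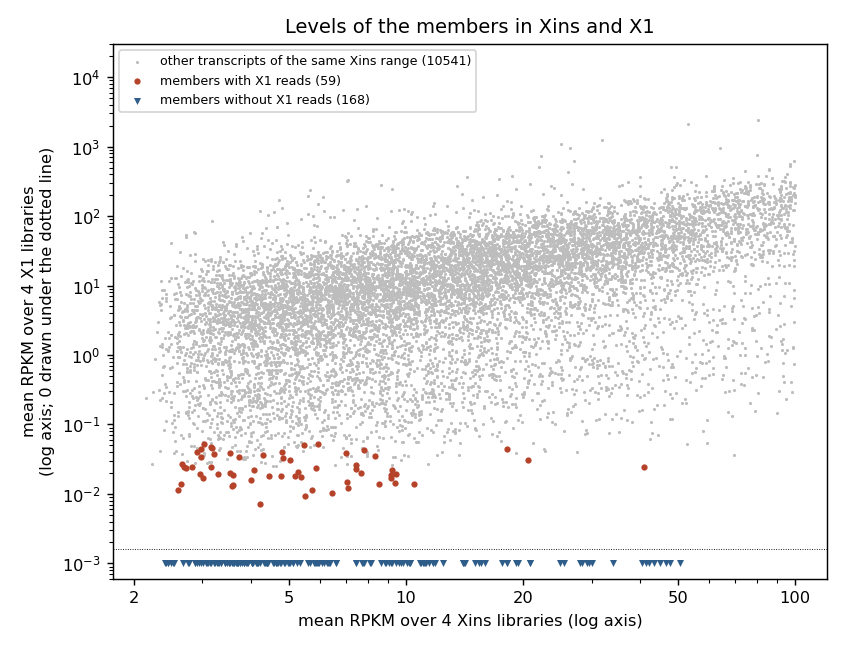
Mean RPKM over the 4 Xins libraries (horizontal, log axis) against mean RPKM over the 4 X1 libraries (vertical, log axis, with 0 drawn under the dotted line) for the 227 members and the 10541 other transcripts of the same Xins range. The 59 members with any X1 read form the lower edge of the cloud and the 168 without one lie on the line for 0, between 2.40 and 50.7 RPKM in Xins.

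The lower limit, in contrast, cut through a continuum. Just inside the Xins minimum lay SMED30007026 and SMED30010573, each with a lowest Xins library at 2.01 RPKM, and just outside it SMED30003351 and SMED30014297 at 1.999 RPKM. Just inside the X1 limit lay SMED30025148 and SMED30024864, each with a highest X1 library of 0.0999 RPKM, and just outside it SMED30005517 at 0.1008 RPKM and SMED30012000 at 0.1009 RPKM. Lowering the Xins minimum to 1 RPKM gave 356 transcripts and raising it to 5 RPKM gave 80. Raising the X1 limit to 0.2 RPKM gave 384, and lowering it to 0.05 RPKM gave 178.

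The word absent could be checked against reads. Whole reads came out of every deposited value, so a value of 0 was a library without a read. In 168 members (74.0%) none of the 4 X1 libraries held a read. A further 43 members had 1 to 3 X1 reads over the 4 libraries, 19 of them a single read, and 16 members had more than 3. All members together had 116245 reads in Xins and 212 reads in X1, a pooled X1 level of 0.220% of the Xins level (exact Poisson interval 0.192% to 0.252%, which covers counting error only). Without the 10 most abundant members it was 0.240% (0.208% to 0.274%), from 106378 and 211 reads.

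As a scale for that share, epidermal lineage markers and transcripts grouped by in situ pattern had larger shares in X1. In X1, AGAT-1 stood at 0.496% of its Xins level, zpuf-6, a gene of late epidermal progeny and epidermis, at 1.45%, the epidermal transcription factor egr-5 at 4.70% and vim-3 at 13.3%. The 57 transcripts whose in situ note names the AGAT-1 mesenchymal pattern stood at 4.46%. The 38 measured transcripts whose note mentions gut, here called the gut pattern, stood at 34.2%, and some of these notes are uncertain. Whether gut-pattern transcripts are also expressed in dividing cells was not tested. None of these groups was chosen for low X1 values, whereas the members were, so the order is a description, and 1 member belongs to each of the last pair.

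X1 reads followed transcript length, as a fixed limit in RPKM makes them do. A single read passes 0.1 RPKM in every X1 library when a transcript is 668 nucleotides long or shorter, and in X1 replicate 4, the library with the smallest size factor, at up to 848 nucleotides. For 78 members (34.4%) the limit thus meant no read at all. All 58 members under 500 nucleotides had 0 X1 reads, as the limit required at that length, beside 20697 Xins reads. The upper 95% bound from counting was 0.0215% of the Xins level. It leaves the selection out and so does not bound the true X1 level. Of the 56 members from 500 to under 1000 nucleotides, 52 had no X1 read, and the pooled X1 level was 0.0349% (0.0113% to 0.0814%). Among the 80 members from 1000 to under 2000 nucleotides 49 had none, with a pooled level of 0.160% (0.121% to 0.208%). At 2000 nucleotides or more only 9 of 33 had none, and the pooled level was 0.507% (0.429% to 0.594%).

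**Figure D2:**
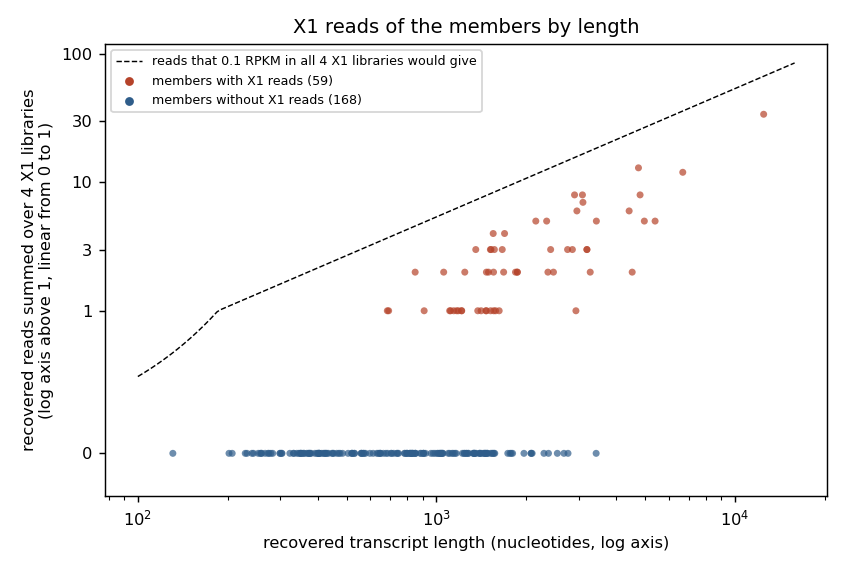
Reads summed over the 4 X1 libraries (vertical, log axis above 1, linear from 0 to 1) against transcript length (horizontal, log axis) for the 227 members, with the reads that 0.1 RPKM in all 4 X1 libraries would give as a dashed line. Short members all lie at 0, and the member with the most X1 reads, 34, is also the longest at 12483 nucleotides.

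Long members could hold several X1 reads and stay within the limit, so their ratios rested on counted reads. The limit capped their X1 values, so the low X1 level was set by the selection, which the intervals leave out. SMED30005039, at 12483 nucleotides the longest member, had 5.24, 5.98, 4.05 and 6.67 RPKM in Xins replicates 1 to 4, against 0.0804, 0.0115, 0.0668 and 0.0408 RPKM in X1 replicates 1 to 4. These values rested on 4461 reads in Xins and 34 in X1, a 108.6-fold ratio (exact Poisson interval 77.8 to 157). SMED30003490 (6689 nucleotides) had 12 X1 reads, 9 of them in replicate 2, and a ratio of 145-fold (83.2 to 281). SMED30020654 (4753 nucleotides) had 13, with reads in every X1 library, and the lowest ratio of any member with X1 reads, 59.5-fold (34.8 to 112). The highest ratio among members with more than 3 X1 reads was that of SMED30015099, 533-fold (228 to 1641), from 3217 reads in Xins and 5 in X1.

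For members without an X1 read the ratio is given as a counting bound, written as at least. It is taken against the X1 level that 3 reads over the 4 X1 libraries would give. Low X1 values were selected, and in members of 668 nucleotides or shorter a count of 0 was required. The bound therefore covers counting error only and does not bound the true ratio. These bounds ran from at least 17.9-fold to at least 389-fold with a median of 82.8, and 66 members were bounded at more than 100-fold. The floors themselves ran from 0.0162 to 0.425 RPKM, and 64 of them were above 0.1 RPKM, so for those members the depth could not show whether the pooled X1 level was under the limit.

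The 5 highest bounds belonged to transcripts that joined a fair level with enough length. SMED30024899 (1548 nucleotides) had 17.9, 13.1, 12.7 and 12.3 RPKM in Xins replicates 1 to 4, from 1412 reads, and no read in X1, at least 389-fold higher in Xins. SMED30016207 (1332 nucleotides) had 19.0, 16.8, 13.9 and 14.0 RPKM in Xins and no X1 read, at least 381-fold higher. SMED30027333 (2077 nucleotides) had 11.5, 9.12, 7.57 and 11.1 RPKM in Xins and no X1 read, at least 366-fold higher. In these 3 the Xins libraries lay closer together, as a ratio of highest to lowest, than in any of the 5 most abundant members. The remaining pair, SMED30012504 (at least 341-fold) and SMED30034460 (at least 320-fold), were also among the 5 most abundant members. At 422 and 351 nucleotides, neither could hold an X1 read within the limit.

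Across all 15563 transcripts with a mean of at least 1 RPKM over the 8 libraries, 6492 were called higher in Xins by limma at an adjusted p under 0.05, or 41.7%, and in 6029, or 38.7%, every Xins library lay above every X1 library. All 227 members passed the minimum, were called and showed no overlap. The members were selected on this contrast, so nothing is read from these counts. In log2(RPKM + 1), where the added 1 shrinks differences of low transcripts, the median log2 difference of the members (Xins minus X1) was 2.50, with a range of 1.76 to 5.64, and that of all transcripts tested was 0.11.

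Names and functions were known for few members. The study's tables give a protein hit, the best-matching protein of another species, for 9 members (3.97%), against 8.43% of all transcripts in the table. Those tables cover transcripts changed by RNAi or tried by in situ hybridization, and all 9 hits fell among the 26 members found in them as changed by RNAi. For the 201 members not listed as changed by RNAi, a missing name therefore says nothing. The RNAi lists held 11.5% of members and 11.8% of the table. Why a smaller share of members had a hit was not tested. By role, the hits counted 3 metabolic enzymes of 356 in the table, 2 channel-associated proteins of 134 in the group of channels and transporters, 1 receptor of 24, 1 synaptic protein of 35 and 2 others of 636. None of the 57 hits to transcription and chromatin factors, the 149 to kinases, phosphatases and G proteins, the 41 to proteases and their inhibitors or the 23 to TRAF adaptors was a member. The 36 hits to cytoskeletal proteins and motors and the 16 to matrix, adhesion and lectin proteins gave no member either. Of the 1507 transcripts in the table with a hit, 9 (0.597%) were members. At so low a share, groups of these sizes can lack a member by chance. The empty groups are therefore not read as a trait of the members.

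**Figure D3:**
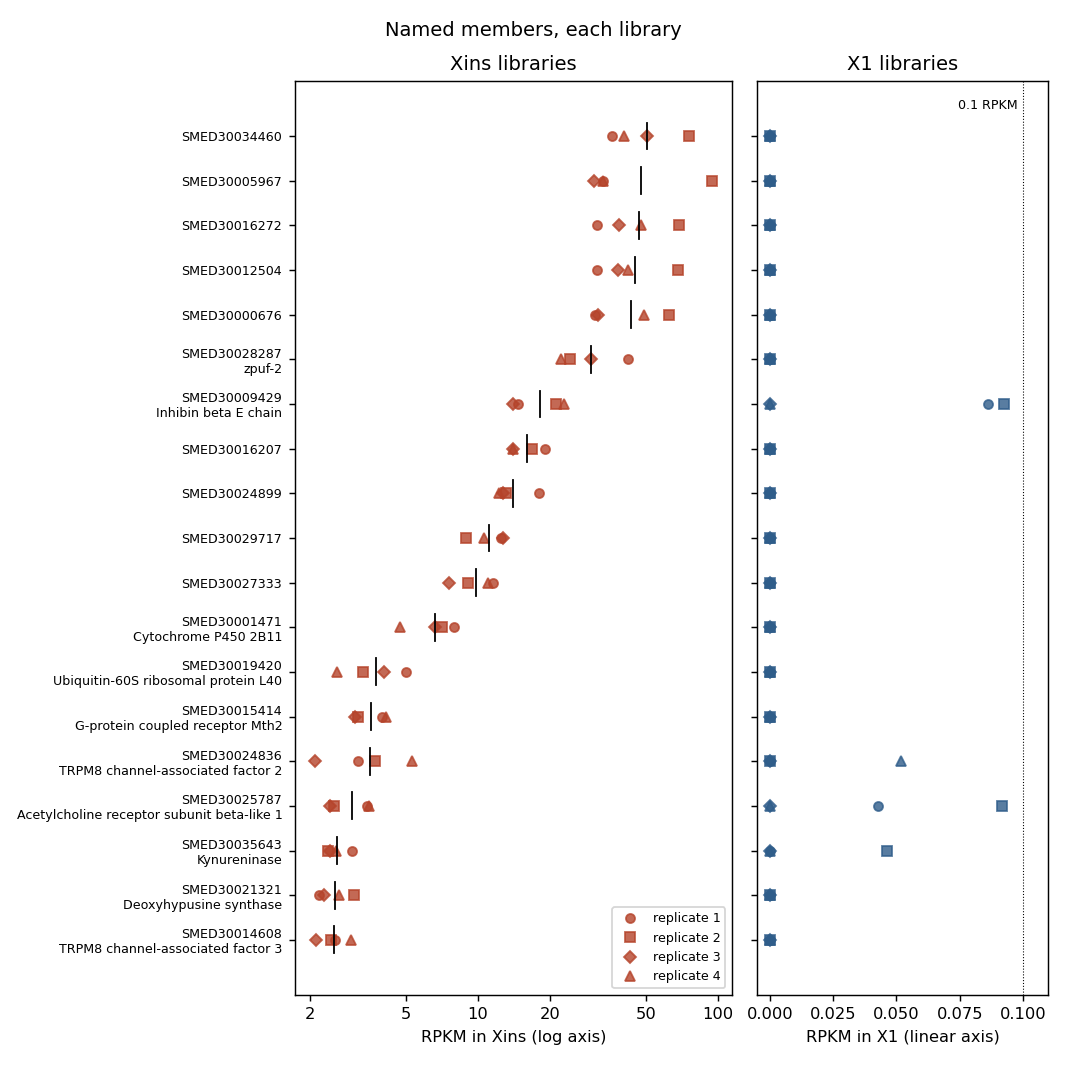
RPKM of the 19 members named by rule, in the 4 Xins libraries (left, log axis, with the mean as a bar) and the 4 X1 libraries (right, linear axis, with the limit of 0.1 RPKM dotted). Symbols mark the replicate number, which does not pair libraries across fractions. The 5 most abundant members are highest in Xins replicate 2, and 4 of the 19 have any X1 read.

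SMED30009429, whose hit is inhibin beta E chain, in mammals a ligand subunit of the TGF-beta superfamily, had 14.7, 21.2, 14.0 and 22.8 RPKM in Xins replicates 1 to 4, against 0.0863, 0.0926, 0 and 0 RPKM in X1 replicates 1 to 4. It was the most abundant member with a protein hit, 379-fold higher in Xins (interval 148 to 1392) from 1832 and 4 reads. Replicates 2 and 4 of Xins were high and replicates 1 and 3 low.

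SMED30015414 has a hit to Mth2, a G-protein coupled receptor of the Methuselah family known from Drosophila. It had 4.00, 3.17, 3.09 and 4.15 RPKM in Xins and no read in X1, at least 134-fold higher. SMED30025787, with a hit to an acetylcholine receptor subunit (beta-like 1), part of the ligand-gated channel that answers acetylcholine at synapses, had 3.44, 2.53, 2.41 and 3.53 RPKM in Xins, against 0.0428, 0.0918, 0 and 0 RPKM in X1. With 304 reads in Xins and 3 in X1 its ratio was 83.9-fold, and the interval of 28.7 to 407 shows how loosely 3 reads fix it. Both transcripts had the same order of Xins libraries, with replicates 1 and 4 above replicates 2 and 3.

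Members with hits to TRPM8 channel-associated factors, proteins that in mammals bind the cold-sensing channel TRPM8, were both low and long. SMED30024836 (factor 2, 3276 nucleotides) had 3.16, 3.72, 2.09 and 5.31 RPKM in Xins, against 0, 0, 0 and 0.0518 RPKM in X1, a ratio of 316-fold (87.5 to 2608) from 763 and 2 reads. SMED30014608 (factor 3, 3429 nucleotides) had 2.55, 2.45, 2.13 and 2.95 RPKM in Xins and no X1 read, at least 155-fold higher. In both, Xins replicate 4 was highest and replicate 3 lowest. If the genes are near-identical in places, reads could be shared between them, which was not tested.

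The 3 enzymes were found at a few RPKM. SMED30001471, with a hit to cytochrome P450 2B11, of a family that oxidizes drugs and lipids, had 7.95, 7.08, 6.66 and 4.74 RPKM in Xins and no X1 read over its 2542 nucleotides, at least 302-fold higher. SMED30035643, a kynureninase by its hit, an enzyme of tryptophan breakdown, had 3.00, 2.38, 2.43 and 2.57 RPKM in Xins, against 0, 0.0461, 0 and 0 RPKM in X1, 218-fold (39.1 to 8601) on a single X1 read. SMED30021321, with a hit to deoxyhypusine synthase, which modifies a lysine of the translation factor eIF5A, had 2.17, 3.04, 2.29 and 2.64 RPKM in Xins and no X1 read, at least 56.4-fold higher. Among these, the P450 was the highest in each Xins library, and its bound was above that of deoxyhypusine synthase.

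SMED30019420 has a hit to ubiquitin-60S ribosomal protein L40, a fusion from which free ubiquitin and a ribosomal protein are released. It had 5.01, 3.33, 4.08 and 2.58 RPKM in Xins and no X1 read, at least 160-fold higher. Xins replicate 1 was highest and replicate 4 lowest. Whether this transcript of 2374 nucleotides is the ribosomal gene itself was not tested.

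zpuf-2 (SMED30028287), a transcript without a protein hit and 1 of the 29 candidates of the study's in situ screen, was found in mesenchymal cells with the AGAT-1 pattern. It had 42.3, 24.1, 29.5 and 22.2 RPKM in Xins replicates 1 to 4 and no read in X1, at least 225-fold higher in Xins. Its primers are the first pair printed above. With 424 nucleotides it is among the short members, but it was highest in Xins replicate 1, not in replicate 2. SMED30029717 had 12.4, 8.93, 12.7 and 10.6 RPKM in Xins and no X1 read, at least 94.3-fold higher. At 424 nucleotides for zpuf-2 and 471 for SMED30029717, neither could hold an X1 read within the limit. Both bounds therefore cover counting error only. In the in situ screen SMED30029717 was noted as very weak in discrete cells, with neoblasts as a possibility. The P450 transcript gave no clear pattern there beyond a possible weak gut signal.

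The members were also set against the study's lists of transcripts changed in whole worms by RNAi of chd4, a chromatin remodeller, or p53, both needed for neoblasts to yield AGAT-1 cells. These lists come from other libraries and so did not enter the selection. Of the 227 members, 17 (7.49%) were listed as lowered by at least 1 of the 2 treatments, against 9.59% of all transcripts in the table and 9.53% of the other transcripts of the same Xins range. Lowered in both were 6 members (2.64%, against 3.08% of the table), lowered with p53 RNAi only 3 (1.32%, against 3.26% of the table) and with chd4 RNAi only 8 (3.52%, against 3.25% of the table). Listed as raised were 9 members (3.97%), against 2.33% of the table and 2.14% of the same Xins range. Taking all lists together, 26 members (11.5%) were in one, against 11.8% of the table, and 201 were in none.

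Members with a protein hit are called here by that hit, which does not establish which gene they are. Among the 6 lowered in both were zpuf-2, the P450, the L40 fusion, the acetylcholine receptor subunit, SMED30029717 and SMED30033892. Mth2, kynureninase and deoxyhypusine synthase were lowered in chd4 RNAi only. Of the 9 raised, inhibin beta E chain and TRPM8 channel-associated factor 2 were raised in both (0.881% of members, against 0.330% of the table), and factor 3 with 4 others in chd4 RNAi only (2.203%, against 1.30%). The 2 raised in p53 RNAi only (0.881%, against 0.699%), SMED30023730 and SMED30029987, were named after their values were seen, since both were among the 10 most abundant members. SMED30023730 had 39.5, 56.2, 25.4 and 44.7 RPKM in Xins and no X1 read. SMED30029987 had 30.2, 54.7, 36.7 and 41.6 RPKM in Xins and 1 X1 read, in replicate 1.

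The most abundant members shared a feature that the limits did not name: they were short. Of the 20 members at 20 RPKM or more, 18 were under 500 nucleotides. Over all members the median length was 989 nucleotides (quartiles 480.5 and 1518, range 131 to 12483), against 1406 nucleotides in the other transcripts of the same Xins range. Members under 500 nucleotides made up 25.6% of the group, against 8.05% of those others, and had a median level of 11.1 RPKM, against 4.38, 4.71 and 4.21 RPKM in the 3 longer classes. Seen from the whole range of 10768 transcripts, 2.11% met the X1 limit. By length the share was 6.40% under 500 nucleotides, 2.26% from 500 to under 1000, 1.801% from 1000 to under 2000 and 1.12% at 2000 or more. By level it was 5.77% from 2 to under 5 RPKM, 2.31% from 5 to under 10, 1.17% from 10 to under 20 and 0.569% from 20 to under 100 RPKM. Short and low transcripts have fewer reads at a given ratio between fractions, and the fixed X1 limit asks a larger ratio at higher levels. How much of these shares either accounts for was not tested.

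The 5 most abundant members had no name, and each had its highest value in Xins replicate 2. SMED30034460 (351 nucleotides) had 36.3, 75.4, 50.7 and 40.4 RPKM in Xins replicates 1 to 4 and SMED30005967 (299 nucleotides) had 33.2, 94.2, 30.5 and 33.0 RPKM. SMED30016272 (232 nucleotides) had 31.4, 68.7, 38.8 and 47.5 RPKM, and SMED30012504 (422 nucleotides) 31.5, 68.1, 38.3 and 42.1 RPKM. SMED30000676 (332 nucleotides) had 30.6, 62.4, 31.7 and 48.9 RPKM. None of the 5 had an X1 read. Replicate 2 was also the highest library for 17 of the 20 members at 20 RPKM or more, with a median deviation of 0.53 on the log2 scale from the transcript's mean over the Xins libraries, while 19.8% of the 3498 other transcripts at that level were highest there. Among the 309 of these others that were under 500 nucleotides, as 18 of the 20 members were, it was 58.9%.

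Length went with this pattern inside and outside the group. Among the 58 members under 500 nucleotides 69.0% were highest in Xins replicate 2, and among the 848 others of that length 48.4% were, with median deviations of 0.38 and 0.26. Among the 169 longer members 23.7% were highest there, and among the 9693 longer others 16.7%, with median deviations of 0.06 and −0.03. The part of length in the values of replicate 2 was not tested. Summed over all members, Xins replicates 1 to 4 held 1876, 2386, 1715 and 1839 RPKM, against 1.63, 1.30, 1.05 and 2.05 RPKM in X1 replicates 1 to 4. Replicate 2 was 1.32 times the mean of the other Xins libraries, and 1.08 times in members of 500 nucleotides or more alone.

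**Figure D4:**
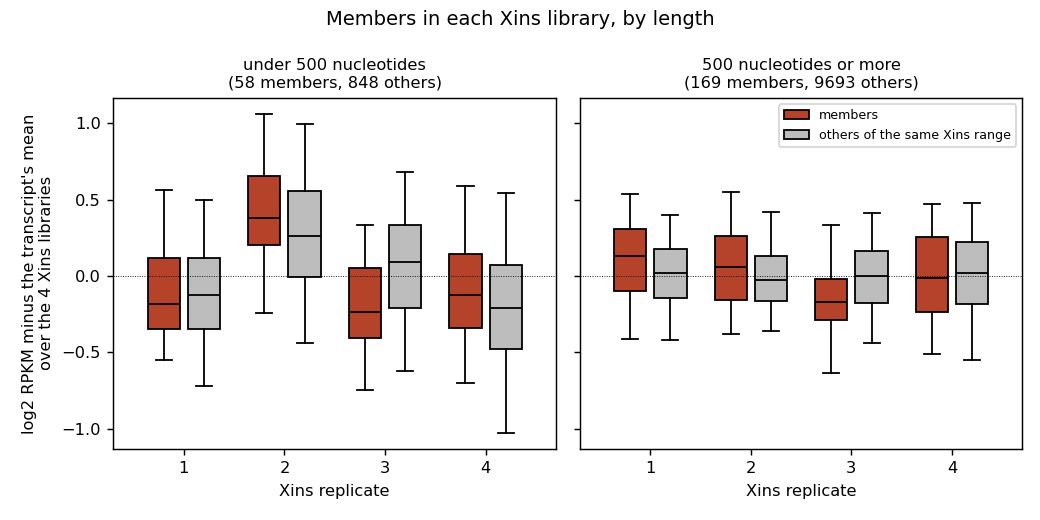
Deviation of each Xins library from the transcript's own mean over the 4 Xins libraries (log2 RPKM, vertical) for the members and the other transcripts of the same Xins range, under 500 nucleotides (left) and longer (right). Boxes span the quartiles with the median as a line, and whiskers the 5th to 95th percentiles. Short transcripts of both kinds are high in replicate 2, and the members' median is low in replicate 3 at both lengths, by 0.24 and 0.17 on the log2 scale.

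Xins replicate 3 was low in these transcripts. It was the highest library for 17 members (7.49%) and the lowest for 86, whereas 25.4% of the other transcripts of the same Xins range were highest there. The median deviations of the members in Xins replicates 1 to 4 were 0.08, 0.13, −0.18 and −0.03 on the log2 scale. The members' low in replicate 3 was seen at both lengths, since short members deviated by −0.24 and longer ones by −0.17 there, beside 0.09 in the short others and −0.0017 in the longer others of the same Xins range. Neoblast markers ran the opposite way: they summed to 68.8, 87.0, 157 and 95.9 RPKM in Xins replicates 1 to 4, so that replicate 3 stood at 154% of the fraction's mean, and their part in the members' values was not tested. The AGAT-1 pattern was at 97.0%, 120.5%, 104% and 78.7% of its own mean and the gut pattern at 88.0%, 110.6%, 89.4% and 112% in Xins replicates 1 to 4.

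Spread between Xins libraries was somewhat wider in the members than around them. The median coefficient of variation was 24.0% over the 4 Xins libraries, from 2.88% to 70.4%, against 18.4% in the other transcripts of the same Xins range, and counting error alone gives a median of 10.5% in the members and 5.76% in the others. The highest Xins library was a median of 1.68 times the lowest, against 1.51 times, and more than 2 times in 67 members (29.5%), against 13.9%. With at least 400 Xins reads, where counting matters less, the 106 such members had a median of 1.65 times, against 1.48 times in the others. The steadiest member was SMED30027013, listed as lowered in p53 RNAi only, with 8.59, 8.24, 8.39 and 8.02 RPKM in Xins. The least steady was SMED30028674, also lowered in p53 RNAi only, with 2.60, 16.1, 6.38 and 7.32 RPKM in Xins from 108 reads. Both were named after their values were seen.

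Each library could be set aside and the limits applied to the other 7, although all 8 come from the same selection. Of the 232, 235, 256 and 245 transcripts found without Xins replicates 1 to 4, the left-out library reached 2 RPKM in 97.8%, 97.4%, 88.7% and 92.7%. Of the 272, 270, 320 and 366 transcripts found without X1 replicates 1 to 4, the left-out library was under 0.1 RPKM in 83.5%, 84.1%, 70.9% and 62.0%. The limits are unlike in reads, so these shares do not compare the fractions: the transcripts that a left-out library kept out had a median of 16 to 40 reads there for Xins and 3 to 6 reads for X1. Within X1 the share was lowest for replicate 4.

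X1 replicate 4 alone kept 139 transcripts out, which had a median of 4 reads and 0.298 RPKM there, and 12 of the 366 reached 1 RPKM or more in it. X1 replicate 4 also had reads in the most members, 35, against 29, 21 and 17 members in X1 replicates 1 to 3. In summed reads replicate 1 held the most, with 66, 44, 40 and 62 reads of members in X1 replicates 1 to 4. The 4 epidermal lineage markers (AGAT-1, zpuf-6, vim-3 and egr-5) summed to 25 RPKM there, or 173% of the X1 mean, against 7.89, 7.51 and 17.3 RPKM in X1 replicates 1 to 3. The part of such cells or RNA in the X1 reads of members was not tested. The size factor also differed: the library sizes inside the deposited values were 0.823 times the recovered reads in X1 replicate 4, 0.911 to 1.02 times in the other X1 libraries and 1.02 to 1.15 times in Xins. With sizes set to the summed reads, 262 transcripts met the limits, 226 of them members.

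**Figure D5:**
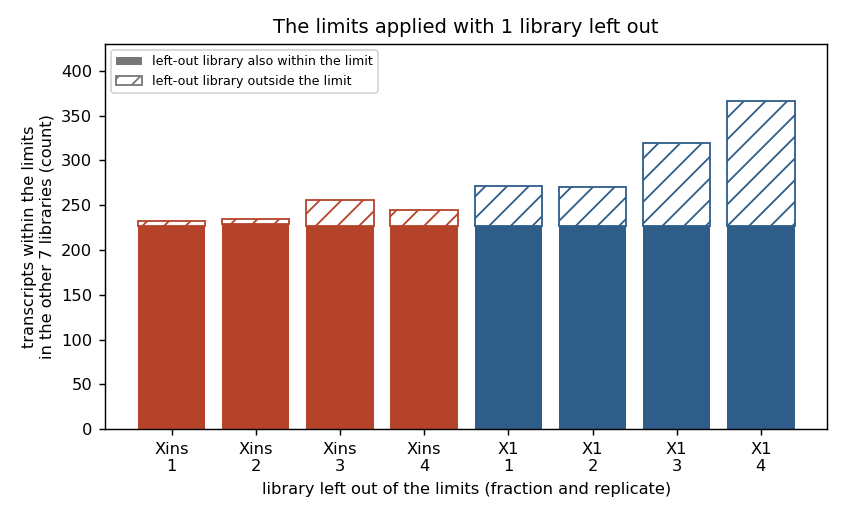
Number of transcripts within the limits in 7 libraries (vertical) for each library left out (horizontal, Xins libraries left, X1 libraries right), split by whether the left-out library also met its limit (solid) or not (hatched). Leaving out X1 replicate 4 gives the most, 366, of which 227 stay within the limit there.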

How the data were processed

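Polyadenylated RNA of sorted cells, 100 ng per library, was sequenced after Illumina TruSeq preparation. The submitters' processing notes name CASAVA 1.8.2, Bowtie and edgeR, with no role or order. The authors deposited 1 table of RPKM values for 17882 transcripts in 8 libraries. For the whole-worm RNAi libraries, the study's methods describe Bowtie alignment to an assembled, redundancy-reduced transcript set, discarding reads with too many matches, then a tally per transcript. Whether this holds for the sorted libraries, and what filter left these transcripts, is not stated, and reads of near-identical transcripts may be split or lost.

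Reads and lengths were recovered from the steps of the deposited RPKM values: with 1 whole-number length per transcript and 1 size per library, all 17882 transcripts gave whole reads within 0.001 of a read, against 0 of 500 altered ones. Where reads share a divisor, the smallest solution was taken. Depth was 14323705 to 15523242 reads per library. Intervals are exact Poisson intervals (95%) on X1 reads and cover counting error only. They take no account of the selection on low X1 values. A floor is 3 reads over the 4 X1 libraries.

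Because the values are RPKM, limma 3.58.1 (R 4.3.3) was fitted to log2(RPKM + 1) of transcripts with a mean of at least 1 RPKM, with a mean-variance trend, coefficient Xins minus X1, two-sided and Benjamini-Hochberg adjusted at 0.05. The fit was tested on simulated data. Other steps used Python 3.11.15, numpy 2.4.6, pandas 2.3.3, scipy 1.17.1 and matplotlib 3.10.9.

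Named are members among the 29 candidates or with an in situ result, those with a protein hit, the 5 highest by mean Xins RPKM, the 5 highest by bound among those without X1 reads, and the transcripts nearest each limit. Others are marked where they occur. Lists, in situ patterns, hits and primers are the study's, on other samples. Neoblast, epidermal and gut markers check the sort. Alternatives covered the limits, pseudocount, filter, scaling, trend, replicate block, recovered reads (limma-voom) and each library left out. The members and lists were chosen with earlier results of these data known.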

Additional observations from a re-analysis of the deposited data

Results flagged for a closer look

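Xins values were examined for 19 named members and 8 summaries of the libraries, 27 sets of 4 values in all, for a highest or lowest library far from the other 3. Chance gives such a gap in about 1 of 20 sets, and 2 were found. SMED30005967 stood at 94.2 RPKM in Xins replicate 2, against 33.2, 30.5 and 33.0 RPKM in Xins replicates 1, 3 and 4, and had no X1 read. SMED30024899 stood at 17.9 RPKM in Xins replicate 1, against 13.1, 12.7 and 12.3 RPKM in Xins replicates 2, 3 and 4, and had no X1 read. X1 values of members are capped by the selection and were not examined.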

How the results depend on the processing

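The selection fixed the direction of the members, so their calls under other settings are no sign of stability; the 314 values of the 19 named members ran from 0.59 to 9.17 on the log2 scale. The number of transcripts meeting the limits was 384 with an X1 limit of 0.2 RPKM, 356 with a Xins minimum of 1 RPKM, 80 with one of 5 RPKM, and 232 to 366 with a library left out, highest without X1 replicate 4. Leaving a library out drops its limit, and all 227 members stayed each time, so the count could only rise. Why it rose most without X1 replicate 4 was not tested. At a minimum mean of 5 RPKM, 50 of 50 members and 3708 of 10044 transcripts were called higher in Xins, since fewer were tested. The members' median log2 difference was 5.52 and 0.97 with pseudocounts of 0.1 and 5, 4.18 at a minimum mean of 5 RPKM, 1.87 after quantile normalization, 6.97 with limma-voom on recovered reads, and 2.47 to 2.60 with a library left out, so its size follows the scale used. Of all calls 54.1% were higher in Xins as deposited (6492, against 5519 higher in X1), 42.8% after quantile normalization (5266 and 7027) and 60.5% with summed reads (7179 and 4697). The median of all transcripts was 0.11, −0.25 and 0.32 in the same order. Deviations of same-numbered libraries had no common sign (correlations of 0.269, −0.187, −0.118 and −0.016 for replicates 1 to 4). Pairs with unlike numbers ran from −0.230 to 0.195, so the replicate 1 pair was the highest of all. With the replicate block 227 members and 6454 transcripts were called, and the median stayed 2.50. With limma-voom on recovered reads 6462 transcripts were called. Depth limited the X1 side, where 64 members without an X1 read had a floor above 0.1 RPKM.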
